A study of Mus musculus with 38 samples.

Results

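The binding of SALL4 at gene promoters was compared between wild-type SALL4 (SALL4-WT) and SALL4-delN12, a form without the N-terminal residues that recruit the NuRD complex. Every protein-coding gene of the mouse annotation, 21938 in all, was given 1 promoter, the 2 kb on each side of its start site in mm10, and each promoter was placed by whether a SALL4 peak lay over it in SALL4-WT alone, in SALL4-delN12 alone, in both forms or in neither. The cells were mouse embryonic fibroblasts (MEFs) from E13.5 embryos of OG2 males and 129S4/SvJaeJ females, infected with pMXs retrovirus carrying either form of *Sall4* and grown in the chemically defined medium iCD3 without BMP4. SALL4 was mapped at day 6 by CUT&Tag, in which an antibody brings the Tn5 transposase to the bound DNA, and RNA was measured at days 1, 5, 9 and 11. There was 1 peak list per form and 1 RNA library per form and day, so no spread between replicates could be measured and no test was made. The differences below are differences between those lists and libraries. The embryos behind each dish are not given in the labels, a transgene driven from a retroviral promoter is not a native level of the protein, and the day 6 peaks are set beside RNA of day 5.

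SALL4 is a zinc finger factor of the early embryo and the germ line, and its C-terminal fingers prefer AT-rich DNA. Its N-terminal residues bind RBBP4 in NuRD, a complex that joins a chromatin remodelling ATPase to histone deacetylases and is best known for lowering the activity of enhancers and promoters. MEFs do not normally use SALL4. The primitive endoderm (PrE), the lineage whose genes the study followed, is a sheet of the early embryo that lays down a basement membrane rich in laminin and later lines the yolk sac.

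Of the 21938 promoters, 11302 carried a SALL4-WT peak (51.5%) and 8442 a SALL4-delN12 peak (38.5%). Both forms had a peak at 7737 promoters (35.3%), SALL4-WT alone at 3565 (16.3%), SALL4-delN12 alone at 705 (3.21%), and neither at 9931 (45.3%). The lists were of similar length, 69475 peaks for SALL4-WT and 67310 for SALL4-delN12, but 15.4% of the SALL4-WT peaks and 11.8% of the SALL4-delN12 peaks lay over a promoter. The promoters of SALL4-delN12 were therefore for the most part a subset of those of SALL4-WT. SALL4-WT had a peak at 91.6% of the SALL4-delN12 promoters, whereas SALL4-delN12 had one at 68.5% of the SALL4-WT promoters. With both lists cut to 67310 peaks, 3458 promoters belonged to SALL4-WT alone and 738 to SALL4-delN12 alone. Sharing was lower among peaks with a MACS score of at least 200. There 1689 promoters belonged to both forms, 2380 to SALL4-WT alone and 565 to SALL4-delN12 alone. *Sall4* RNA, transgene and native transcript together, stood at 491 FPKM (fragments scaled to transcript length and library size) in the SALL4-WT library and 623 FPKM in the SALL4-delN12 library of day 5. The part of protein amount or of sequencing depth in these counts was not tested.

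The promoter sequences differed by class, and 5 of them are shown because they span the range from the promoters that both forms bound to those that only SALL4-delN12 bound. Each line gives the 250 bases before the start of the gene, 5′ to 3′ on the strand of the gene, from RefSeq (build GRCm38.p6, the same sequence as mm10), with every CG dinucleotide in capitals. *Crlf2*, a cytokine receptor subunit, had the highest shared score and 24 CG dinucleotides (chr5:109558994-109559243, minus strand). *Wnt6*, a secreted Wnt ligand, was also bound by both and has 28 (chr1:74771642-74771891, plus strand). *Cited1*, a transcriptional co-regulator and one of the PrE genes, was bound by SALL4-WT alone and has 13 (chrX:102252182-102252431, minus strand). *Cd53*, a tetraspanin of leukocytes, and *Mmp12*, the macrophage elastase, were bound by SALL4-delN12 alone. The *Cd53* stretch holds 2 CG dinucleotides (chr3:106790150-106790399, minus strand) and the *Mmp12* stretch 0 (chr9:7344147-7344396, plus strand, ending 16 bases from the start site used for the window). The stretches of *Cd53*, *Mmp12* and *Wnt6* lie outside the SALL4 peaks. The peak midpoints are at 1619 bp from the start for *Cd53*, −1058 bp for *Mmp12*, and 1325 and 1354 bp for *Wnt6* in SALL4-WT and SALL4-delN12.
Crlf2: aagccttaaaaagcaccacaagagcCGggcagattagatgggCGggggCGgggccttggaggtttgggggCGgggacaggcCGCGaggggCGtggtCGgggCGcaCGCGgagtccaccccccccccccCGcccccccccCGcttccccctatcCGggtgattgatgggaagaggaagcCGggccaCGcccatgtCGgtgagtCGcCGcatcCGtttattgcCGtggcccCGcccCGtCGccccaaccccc
Wnt6: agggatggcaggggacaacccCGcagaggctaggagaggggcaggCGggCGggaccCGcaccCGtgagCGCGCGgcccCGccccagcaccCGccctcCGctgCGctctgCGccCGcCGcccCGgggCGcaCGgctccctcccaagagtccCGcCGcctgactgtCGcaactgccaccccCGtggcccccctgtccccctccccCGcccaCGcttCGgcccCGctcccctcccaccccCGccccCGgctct
Cited1: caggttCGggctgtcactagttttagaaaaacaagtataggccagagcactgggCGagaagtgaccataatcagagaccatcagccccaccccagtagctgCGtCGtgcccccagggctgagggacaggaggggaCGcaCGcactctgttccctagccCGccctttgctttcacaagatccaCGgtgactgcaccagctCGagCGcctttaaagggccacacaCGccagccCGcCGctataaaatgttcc
Cd53: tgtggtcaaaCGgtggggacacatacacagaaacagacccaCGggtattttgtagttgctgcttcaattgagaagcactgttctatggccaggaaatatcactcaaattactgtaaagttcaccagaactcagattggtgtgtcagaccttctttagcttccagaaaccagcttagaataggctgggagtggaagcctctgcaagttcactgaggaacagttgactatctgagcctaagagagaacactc
Mmp12: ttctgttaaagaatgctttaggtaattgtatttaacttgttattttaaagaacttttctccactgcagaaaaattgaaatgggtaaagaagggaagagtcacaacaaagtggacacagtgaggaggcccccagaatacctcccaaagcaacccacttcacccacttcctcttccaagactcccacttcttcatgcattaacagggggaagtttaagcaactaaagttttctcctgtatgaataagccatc

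That order held over the classes as medians of the 1 kb around the start sites. The ratio of observed to expected CG dinucleotides had a median of 0.749 at promoters of both forms, 0.661 at those of SALL4-WT alone, 0.385 at those of SALL4-delN12 alone and 0.238 at those of neither, beside 0.552 over all promoters. The median GC content was 58.8%, 57.9%, 50.9% and 48.6% in the same order. A ratio of 0.6 or more, the usual mark of a CpG island, was reached by 5912 promoters of both forms (76.4%) and by 225 of SALL4-delN12 alone (31.9%). Of the 10078 CpG-rich promoters 58.7% were bound by both forms, 20.8% by SALL4-WT alone and 2.23% by SALL4-delN12 alone. Of the 11860 CpG-poor promoters these shares were 15.4%, 12.4% and 4.05%.

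The strength of a peak is given by the MACS score, which is −10 times the log10 of the p-value of the peak, with 50 as the lowest score in each list. At promoters of both forms the score had a median of 198 in SALL4-WT and 136 in SALL4-delN12. The SALL4-delN12 score was the lower one at 5955 of these 7737 promoters (77.0%), and the median log2 ratio of the SALL4-delN12 to the SALL4-WT score was −0.54. At promoters bound by 1 form the scores were lower, with a median of 97.2 for SALL4-WT alone and 105 for SALL4-delN12 alone. Scores rise with depth, so their size is not comparable between the lists unless the depths are known, and they are not.

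Whether SALL4-delN12 shared a promoter went with the SALL4-WT score. The SALL4-WT promoters were cut into 10 equal groups by score. In the group with the lowest scores 28.0% had a SALL4-delN12 peak, in the fifth group 68.8%, and in the highest, with scores of 350 or more, 98.8%. In the other direction the share was high throughout: 84.4% of the SALL4-delN12 promoters in the lowest group and 95.5% in the highest had a SALL4-WT peak. The plot of sharing by score shows a steep line for SALL4-WT promoters and a nearly flat one for SALL4-delN12 promoters.

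**Figure D1:**
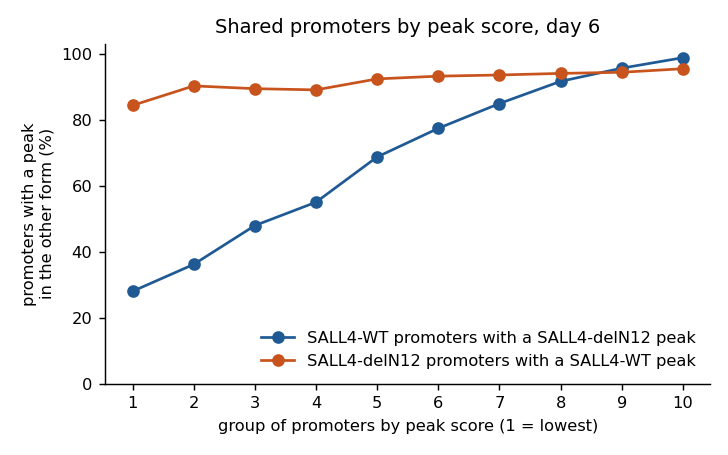
Share of promoters with a peak in the other form (%, vertical axis) for 10 equal groups of promoters ordered by peak score (horizontal axis, 1 the lowest). Blue points are SALL4-WT promoters, from 28.0% to 98.8%, and orange points SALL4-delN12 promoters, from 84.4% to 95.5%.

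Where both forms had a peak, the peaks overlapped each other at 7533 of 7737 promoters (97.4%). For promoters of SALL4-WT alone the nearest SALL4-delN12 peak was a median of 13640 bp from the start site, and 17.9% had one within 5 kb. For promoters of SALL4-delN12 alone the nearest SALL4-WT peak was at a median of 9809 bp, and 30.5% had one within 5 kb. Promoters of neither had a SALL4-delN12 peak within 5 kb at 11.1% (median distance 30129 bp) and a SALL4-WT peak at 15.7% (median distance 23976 bp). Sharing was more frequent at promoters than elsewhere in SALL4-delN12: 86.0% of its promoter peaks and 47.6% of its other peaks were overlapped by a SALL4-WT peak. In SALL4-WT the shares were 64.1% at promoters and 48.7% elsewhere. A single peak lay over the promoters of 2 or more genes at 2766 of the 12007 bound promoters (23.0%), as for *Aldh6a1* and *Lin52*, so neighbouring promoters are not separate observations.

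The peaks of SALL4-delN12 alone were less concentrated at the start site. The midpoint of the highest peak lay within 500 bp of the start at 77.2% of the shared promoters in SALL4-WT and at 70.5% in SALL4-delN12. It did so at 67.9% of the promoters of SALL4-WT alone and at 34.2% of those of SALL4-delN12 alone. The plot of positions shows a sharp summit at the start site in the first 2 classes and a low one in the last.

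**Figure D2:**
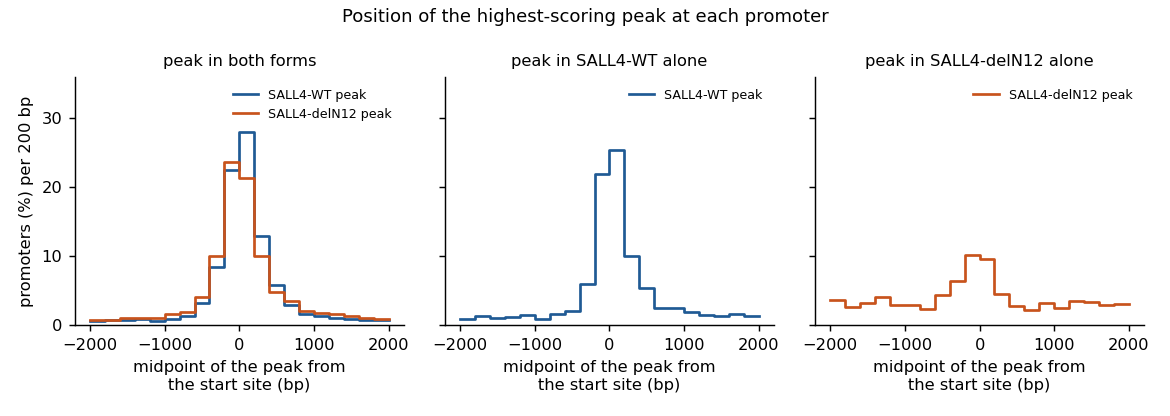
Share of promoters (%) whose highest-scoring peak has its midpoint in each 200 bp step from the start site (negative is upstream), for promoters of both forms, SALL4-WT alone and SALL4-delN12 alone. The step just downstream of the start holds 28.0% of the SALL4-WT peaks at shared promoters, 25.5% at promoters of SALL4-WT alone and 9.65% of the SALL4-delN12 peaks at promoters of SALL4-delN12 alone.

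The sequence under the peaks was read for AATATT, an AT-rich word known for SALL4 that is its own reverse complement, so that 1 search covers both strands. In the 1 kb around the start it was found at 12.5% of promoters of both forms, 10.8% of those of SALL4-WT alone, 24.1% of those of SALL4-delN12 alone and 27.5% of those of neither, against 19.4% of all promoters. In the 201 bases at the centre of the promoter peaks it was found in 7.64% of the 1112 SALL4-delN12 peaks without a SALL4-WT peak over them and in 2.03% of the 6806 with one. In SALL4-WT promoter peaks the shares were 0.939% of 3833 peaks without a SALL4-delN12 peak and 1.24% of 6832 with one. The GC content moved with it, at a median of 45.3% in the SALL4-delN12 peaks without overlap against 61.2% in those with overlap. Among promoter peaks with 30 to 45% GC at the centre, AATATT was in 11.9% of 545 SALL4-delN12 peaks without overlap, 8.55% of 725 with overlap, and 8.33% of 144 SALL4-WT peaks without overlap. In the 403 SALL4-WT peaks of this range with overlap it was in 5.96%. Of the 7 other palindromes of A and T, AAATTT was in 10.8%, 13.8% and 5.56% of the first 3 of these groups and TTTAAA in 20.0%, 26.1% and 14.6%. ATATAT was in 7.89%, 8.00% and 9.72% of them and TATATA in 6.06%, 6.62% and 12.5%, with the SALL4-WT peaks without overlap highest of the 3. ATTAAT, at 6.97%, 6.07% and 4.86%, and TTATAA, at 9.17%, 7.31% and 6.94%, had the order of AATATT in these 3, and TAATTA was in 8.44%, 6.48% and 7.64%. In the 403 SALL4-WT peaks with overlap, AAATTT was in 12.2%, TTTAAA in 21.8%, ATATAT in 5.96% and TATATA in 7.20%. There ATTAAT was in 5.96%, TTATAA in 6.20% and TAATTA in 7.69%. At 45 to 55% GC, AATATT was in 4.64% of 388 SALL4-delN12 peaks without overlap and 3.43% of 1487 with overlap, and in 1.77% of 961 SALL4-WT peaks without overlap and 3.16% of 1299 with overlap. The part of GC content in these shares was not tested.

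The peaks below show the word in place. They were picked for holding AATATT at the centre, and are the 3 with the highest scores among SALL4-delN12 peaks that hold it, lie outside exons and stand at the promoter of 1 gene of SALL4-delN12 alone with a RefSeq promoter entry. The highest-scoring promoters of that class, such as *Cd53* (628), are not among them. Each line gives the 201 bases at the centre of the peak on the plus strand of mm10 with AATATT in capitals. The *Pdcd1lg2* peak (chr19:29412801-29413001, score 320.5) lies inside the gene, outside its exons, and holds the word 2 times. *Pdcd1lg2* encodes a ligand of the immune checkpoint receptor PD-1. The *Il13ra2* peak (chrX:147429551-147429751, score 267) is upstream, with its midpoint at −459 bp from the start of the gene of an interleukin 13 receptor. The *Tmem95* peak (chr11:69876469-69876669, score 208) lies 1449 bp downstream of the start and beyond the end of the gene, which encodes a sperm membrane protein. Its GC content is 50.2%, and that of the other two 31.3% and 32.3%. All 3 genes were under 0.25 FPKM in both libraries of day 5.
Pdcd1lg2: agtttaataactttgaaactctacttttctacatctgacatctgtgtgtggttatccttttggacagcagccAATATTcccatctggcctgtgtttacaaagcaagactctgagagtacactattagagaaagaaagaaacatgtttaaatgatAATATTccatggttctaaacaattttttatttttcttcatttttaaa
Il13ra2: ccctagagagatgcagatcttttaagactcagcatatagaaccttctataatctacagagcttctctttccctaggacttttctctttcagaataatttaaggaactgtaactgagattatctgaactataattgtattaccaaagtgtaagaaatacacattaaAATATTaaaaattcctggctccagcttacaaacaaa
Tmem95: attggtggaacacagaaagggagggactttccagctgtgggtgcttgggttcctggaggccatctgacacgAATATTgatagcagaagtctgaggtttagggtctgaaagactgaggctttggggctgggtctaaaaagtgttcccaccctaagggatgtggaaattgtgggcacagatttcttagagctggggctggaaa

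Promoters with a SALL4 peak were more often those of expressed genes than promoters without one. FPKM values were matched to 20895 of the 21938 genes, and a gene with at least 1 FPKM was counted as expressed. In the SALL4-WT library of day 5, 87.1% of the genes bound by both forms were expressed, 71.6% of those of SALL4-WT alone, 53.9% of those of SALL4-delN12 alone and 21.2% of those of neither, beside 54.5% of all genes. The median level was 8.25, 4.70, 1.31 and 0 FPKM in the same order. The SALL4-delN12 library gave 87.3%, 72.0%, 52.1% and 22.1%. SALL4-WT had a peak at 7.81% of the genes listed at 0 FPKM, at 71.7% of those at 1 to 5 FPKM and at 84.7% of those at 10 to 30 FPKM. SALL4-delN12 had a peak at 5.48%, 52.6% and 64.1% of the genes at the same levels of its own library. At 30 to 100 FPKM the shares were 84.8% and 65.0%, and at 100 FPKM and above 84.6% and 68.6%.

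**Figure D3:**
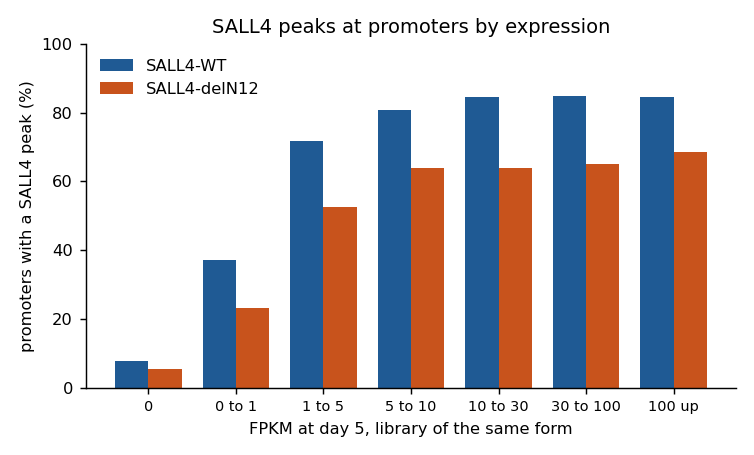
Share of promoters with a SALL4 peak at day 6 (%, vertical axis) by FPKM at day 5 in the library of the same form (horizontal axis), blue for SALL4-WT and orange for SALL4-delN12. The bars run from 7.81% and 5.48% at 0 FPKM to 84.6% and 68.6% at 100 FPKM and above.

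Chromatin accessibility and H3K27 acetylation, a mark of active promoters and enhancers, moved with the classes. Accessibility was read from ATAC-seq peaks. In uninfected MEFs a peak of accessibility lay over 98.5% of promoters of both forms, 89.5% of those of SALL4-WT alone, 76.9% of those of SALL4-delN12 alone and 32.0% of those of neither, so most bound promoters were in open chromatin before infection (66.2% of all promoters were). Among promoters of SALL4-WT alone, 308 were listed as open at day 5 in SALL4-WT and not in SALL4-delN12, and 43 the reverse. For promoters of SALL4-delN12 alone the counts were 53 and 91. Over all promoters they were 1341 and 336, with 64.4% of promoters open in SALL4-WT and 59.8% in SALL4-delN12. An H3K27ac peak of SALL4-delN12 but not of SALL4-WT lay at 229 of the 705 promoters of SALL4-delN12 alone, and the reverse at 11. The shares with an H3K27ac peak in this class were 27.1% in SALL4-WT and 58.0% in SALL4-delN12, against 47.6% and 56.8% over all promoters. The SALL4-delN12 list of H3K27ac was the longer one, 45599 peaks against 19841, and with the same number of peaks in both forms the class stood at 27.1% and 30.2%. The part of open chromatin in the SALL4 peaks was not tested.

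The median difference in expression between the forms was near 0 in every class, while single genes differed in both directions. The median difference in log2(FPKM + 1), SALL4-delN12 minus SALL4-WT at day 5, was 0.00 in all 4 classes over the genes with a value. Among the genes with at least 1 FPKM in either library it was 0.00 for both forms, −0.04 for SALL4-WT alone, −0.08 for SALL4-delN12 alone and 0.01 for neither. The middle 50% of these genes ran from −0.22 to 0.20 for both forms and from −0.58 to 0.37 for SALL4-delN12 alone. In bulk RNA, fewer cells of a type and less RNA per cell cannot be told apart.

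The genes with large differences were spread unevenly over the classes. Of the 11957 genes with at least 1 FPKM in either library of day 5, 529 were at least 2-fold higher in SALL4-delN12 (4.42%) and 576 at least 2-fold lower (4.82%) on the log2(FPKM + 1) scale. Among genes bound by SALL4-delN12 alone, 51 of 385 were lower (13.2%) and 32 higher (8.31%). Among genes bound by SALL4-WT alone, 154 of 2603 were lower (5.92%) and 113 higher (4.34%), close to the background when every listed peak was counted. With peaks under 200 dropped from each list, the class of SALL4-WT alone gave 2.15% and 1.34%. It then included promoters of both forms whose SALL4-delN12 peak scored under 200, so these are not shares of the same genes. At 1 FPKM or more in either library, genes bound by both forms differed least as a whole class, with 204 of 6727 lower (3.03%) and 132 higher (1.96%). Among genes bound by neither, 167 of 2242 were lower (7.45%) and 252 higher (11.2%). With no filter on FPKM, lower genes were 2.69% of both forms, 4.45% of SALL4-WT alone, 7.56% of SALL4-delN12 alone and 1.82% of neither. Higher genes were then 1.74%, 3.26%, 4.74% and 2.74% in the same order. The surplus of lower over higher genes in the SALL4-delN12 class was not found at day 5 at its CpG-rich promoters, with 13 lower and 15 higher of 177, nor at its genes above 30 FPKM, with 12 lower and 13 higher of 83. At days 1, 9 and 11 its CpG-rich promoters had 7, 17 and 21 lower genes and 17, 18 and 10 higher, of 161, 175 and 179. At promoters without an accessibility peak in uninfected MEFs, the genes of both forms did not differ least at day 5. Lower genes were 6 of 54 for both forms (11.1%), 19 of 136 for SALL4-WT alone (14.0%), 7 of 43 for SALL4-delN12 alone (16.3%) and 44 of 726 for neither (6.06%). Higher genes were 16.7%, 17.6%, 16.3% and 14.5% in the same order.

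The share of lower genes in the SALL4-delN12 class was above that of all genes at each day. So was the share of higher genes over the whole class. With peaks under 200 dropped from each list, the higher share at day 5 was 3.66%, below the 4.42% of all genes. The class then included promoters whose SALL4-WT peak scored under 200. Lower genes were 34 of 332 on day 1 (10.2%), 61 of 388 on day 9 (15.7%) and 64 of 398 on day 11 (16.1%). The background was 5.08%, 5.61% and 5.98%. Higher genes made up 10.5%, 10.8% and 8.29% of the class at these days, against 3.74%, 5.75% and 6.2%. In the class bound by neither, the higher share was 7.71%, 14.0% and 14.4% on the same days. CpG-poor promoters held most of the lower genes of the SALL4-delN12 class at day 5, 38 of 208 (18.3%), against 319 of 3594 over all CpG-poor promoters (8.88%). Its CpG-rich promoters gave 13 of 177 (7.34%), against 257 of 8363 (3.07%). Higher genes of the class at CpG-poor promoters were 8.17% at day 5 and 10.5% at day 11, below the 8.96% and 11.1% of all CpG-poor promoters. At days 1 and 9 they were above it, 10.5% and 11.3% against 7.11% and 10.9%. At 5 to 10 FPKM in the higher of the 2 libraries, 15.4% of the genes of SALL4-delN12 alone were lower, against 2.98% of those of both forms and 10.4% of those of neither. At 10 to 30 FPKM the shares were 17.0%, 3.01% and 7.74%, and above 30 FPKM 14.5%, 4.19% and 7.72%. Higher genes of SALL4-delN12 alone made up 4.41%, 6.41%, 9.09% and 15.7% at 1 to 5, 5 to 10, 10 to 30 and above 30 FPKM, against 10.8%, 10.9%, 11.5% and 12.7% of those of neither.

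**Figure D4:**
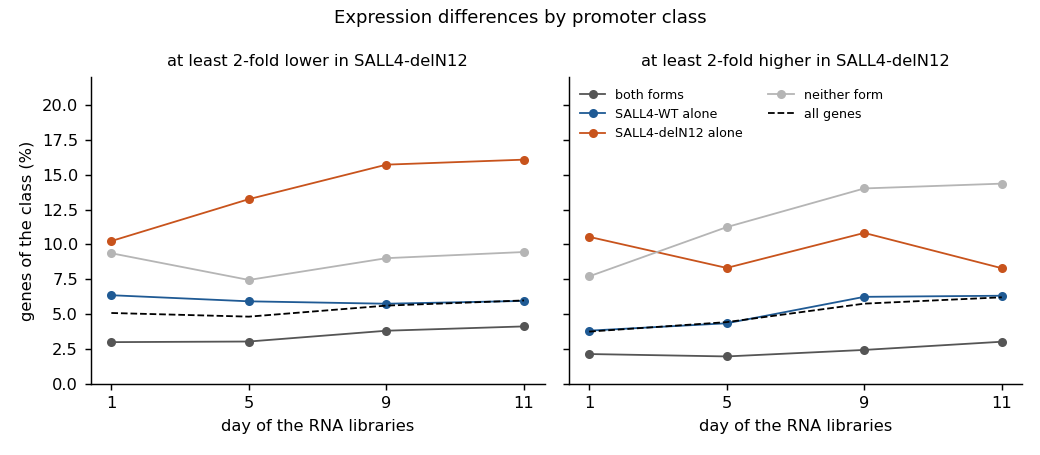
Share of genes (%, vertical axis) at least 2-fold lower (left) or higher (right) in SALL4-delN12 than in SALL4-WT at days 1, 5, 9 and 11 (horizontal axis), by promoter class at day 6; the dashed line is all genes. Lower genes make up 10.2% to 16.1% of the class of SALL4-delN12 alone, above the dashed line at each day, and higher genes make up 7.71% to 14.4% of the class bound by neither.

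The promoters of both forms were cut into 5 equal groups by the ratio of the scores. Large differences were most frequent in the group most shifted to SALL4-delN12. In the group most shifted to SALL4-delN12, with log2 score ratios of 0.09 or more, 70 of 1217 genes were lower (5.75%) and 46 higher (3.78%). In the group most shifted to SALL4-WT, with ratios of −1.09 or less, 30 of 1354 were lower (2.22%) and 24 higher (1.77%). The median difference was −0.02 and 0.01 in these groups. In groups 2 to 4, going from SALL4-WT to SALL4-delN12, lower genes were 1.92%, 2.38% and 3.22% and higher genes 1.07%, 1.37% and 2.05%. The median ratio of observed to expected CG dinucleotides was 0.696 in the group most shifted to SALL4-delN12 and 0.762 in that most shifted to SALL4-WT. The part of CG content in these shares was not tested.

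At the promoters with the highest shared scores the RNA differed little between the forms. *Crlf2* had the highest shared peak, with a score of 991 in SALL4-WT and 940 in SALL4-delN12, and its RNA stood at 9.74 and 10.1 FPKM. The peak between *Aldh6a1*, an enzyme of valine and thymine breakdown, and *Lin52*, a subunit of the DREAM cell cycle complex, scored 899 and 678. *Hbp1*, an HMG-box repressor, scored 865 and 646, and *Ric8b*, a chaperone of G protein subunits, 729 and 643. None of these 5 genes differed by more than 0.21 on the log2 scale at day 5.

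Among the promoters of SALL4-WT alone, *Msln*, which encodes the mesothelial surface protein mesothelin, had the highest score at 608, with RNA of 42.3 FPKM in SALL4-WT and 69.7 FPKM in SALL4-delN12. *Slc35g3* followed with 572 and *Crb1*, a cell polarity protein, with 431, and both were listed at 0 FPKM in both libraries. *Tmem151a* scored 467 and stood at 11.97 FPKM in SALL4-WT against 2.03 FPKM in SALL4-delN12, a difference of −2.10 that had the same sign at days 1, 9 and 11 (−2.17, −2.03 and −1.46). *Crybg2*, a crystallin-domain gene, scored 419 and was under 0.3 FPKM in both. The peaks of *Msln*, *Slc35g3*, *Tmem151a* and *Crb1* had their midpoints at −2327, 2568, −2739 and −2331 bp from the start. They reached the 2 kb window by their edges only.

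Among the promoters of SALL4-delN12 alone, *Cd53* had the highest score at 628, with RNA of 1.26 and 2.04 FPKM. *Otogl* scored 534, *Mmp12* 525, and *Adh4*, an alcohol dehydrogenase, 490. *Mmp12* stood at 1.54 and 1.30 FPKM, and *Otogl* and *Adh4* were listed at 0 in both libraries. Each of these 4 had an H3K27ac peak in SALL4-delN12 and none in SALL4-WT, as had 2291 of all 21938 promoters, and the SALL4-delN12 list is the longer one. The H3K27ac scores of *Otogl* (104) and *Mmp12* (116) were below the median of that list (138).

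Large differences at genes of SALL4-delN12 alone were on both sides. *Slc6a14*, an amino acid transporter, stood at 9.03 FPKM in SALL4-WT and 0.238 FPKM in SALL4-delN12 (−3.02), and *C2cd4a* at 58.7 and 6.57 FPKM (−2.98). *Prg4*, which encodes lubricin, stood at 7.93 and 0.521 FPKM (−2.55). On the higher side were *Cryaa*, the lens chaperone alpha A-crystallin, at 6.99 and 152 FPKM (4.26), and *Krt6a*, an epidermal keratin, at 0 and 16.3 FPKM. *Tnfsf9*, the ligand of the T cell receptor 4-1BB, stood at 21.8 and 127 FPKM (2.49) and *Pycr1*, an enzyme of proline synthesis, at 1.86 and 13.4 FPKM (2.33). The SALL4-delN12 scores of the 4 higher genes were 52.6 to 99.3, all below the class median of 105, and those of the 3 lower genes were 75.1 to 184. The peaks of *Slc6a14*, *C2cd4a*, *Prg4* and *Tnfsf9* reached the 2 kb window by their edges only, with midpoints at 2340, −2316, 2804 and −2034 bp.

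Genes bound by SALL4-WT alone showed differences of like size. *Rps28*, a ribosomal protein gene, was listed at 596 and 10.6 FPKM at day 5 (−5.69). *Spon2*, an extracellular matrix protein, stood at 16.9 and 0.349 FPKM (−3.73), and *Fabp7*, a fatty acid binding protein of brain, at 12.7 and 0.286 FPKM (−3.41). Higher in SALL4-delN12 were *Ly6d*, a surface protein of lymphocytes and keratinocytes, at 0 and 33.7 FPKM, and *Tnnt3*, the fast skeletal troponin T, at 0.424 and 21.9 FPKM (4.01). *Krt8*, the keratin of simple epithelia, stood at 11.3 and 166 FPKM (3.76) and *Ptgds*, prostaglandin D synthase, at 1.91 and 26.98 FPKM (3.26). The SALL4-WT scores of these 7 promoters were between 66.9 and 147. The peaks of *Spon2* and *Ly6d* reached the window by their edges only, with midpoints at −2187 and −2132 bp. *Rps28* has near-identical processed copies, so its FPKM is uncertain, and the part of read assignment in it was not tested.

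At promoters of both forms the differences furthest below 0 were those of *Cp*, *Bmp2*, *Postn* and *Bst1*. *Cp*, the copper oxidase ceruloplasmin, stood at 31.6 and 1.14 FPKM (−3.93). *Bmp2*, a BMP ligand, stood at 57.5 and 4.19 FPKM (−3.50), *Postn*, a matrix protein of fibroblasts, at 124 and 11.7 FPKM (−3.31), and *Bst1*, a surface enzyme of stromal cells, at 23.2 and 1.74 FPKM (−3.14). *Cp* had the weaker SALL4-WT peak (53.2 against 240) and *Bst1* the weaker SALL4-delN12 peak (256 against 53.9), so these lower genes leaned to either form. Higher were *Krt1*, a keratin of the upper epidermis, at 0.273 and 43.7 FPKM (5.13), *Wnt6* at 2.28 and 83.3 FPKM (4.68), *Pglyrp1*, a bacterial peptidoglycan receptor, at 0.0981 and 16.2 FPKM (3.97), and *Fam163b* at 0.0454 and 14.0 FPKM (3.84). All 8 differences had the same sign at days 1, 9 and 11.

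The 12 PrE genes had fewer SALL4-delN12 peaks than SALL4-WT peaks. SALL4-WT had a peak at 7 of the 12 promoters (58.3%, against 51.5% of all promoters) and SALL4-delN12 at 3 (against 38.5% of all promoters). None was bound by SALL4-delN12 alone. These are counts of listed peaks. In the study, the SALL4 signal within 2 kb of PrE gene starts was quite similar in the forms, with no significant difference. The PrE genes of SALL4-WT alone scored 50.3 to 92.9, where the lowest listed score is 50. Of all SALL4-WT promoters scoring 50.02 to 68.45, 28.0% had a SALL4-delN12 peak. Of those scoring 89.39 to 111.15, 48.0% had one. The part of peak score in these counts was not tested. Of the transcription factors, *Gata6* scored 307 in SALL4-WT and 157 in SALL4-delN12 and *Klf4* scored 166 and 269, whereas *Gata4* had a SALL4-WT peak alone, with a score of 86.8 and its midpoint at −1364 bp from the start. *Sox17*, *Foxa2* and *Pitx1* had no promoter peak in either form. *Lama1*, the laminin alpha chain of the early basement membrane, scored 200 and 81.9. *Cited1* (67.2), the parathyroid hormone receptor gene *Pth1r* (50.3) and the chondroitin sulphotransferase gene *Chst15* (92.9) had a peak of SALL4-WT alone, and the endocytic adaptor gene *Dab2* and *Eva1a* none. The windows of *Pitx1* and *Dab2*, both expressed, also had no H3K27ac peak and no accessibility peak of day 5 in either form. With 1 start per gene, a SALL4 peak at another start is not counted.

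Their RNA at day 5 differed in both directions. The 4 genes of SALL4-WT alone stood higher in SALL4-delN12, with *Cited1* at 1.58 and 16.4 FPKM (2.75), *Pth1r* at 1.55 and 4.16 FPKM (1.02), *Gata4* at 0.811 and 1.91 FPKM (0.68) and *Chst15* at 2.45 and 3.27 FPKM (0.31). Of the genes of both forms, *Klf4* stood at 12.8 and 2.45 FPKM (−1.99), *Gata6* at 4.26 and 2.52 FPKM (−0.58) and *Lama1* at 1.65 and 2.35 FPKM (0.34). Of the unbound genes, *Pitx1* stood at 17.9 and 38.3 FPKM (1.06), *Dab2* at 7.93 and 6.80 FPKM (−0.19) and *Eva1a* at 4.84 and 5.73 FPKM (0.20), while *Sox17* and *Foxa2* were under 0.2 FPKM in both. At day 11 the differences of the 3 classes overlapped, from −0.17 to 3.55 in the genes of both forms, from 1.10 to 4.88 in those of SALL4-WT alone, and from 1.06 to 3.81 in those of neither. These genes were taken from the study, which chose them on related samples of this series, so their higher RNA is not independent evidence.

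**Figure D5:**
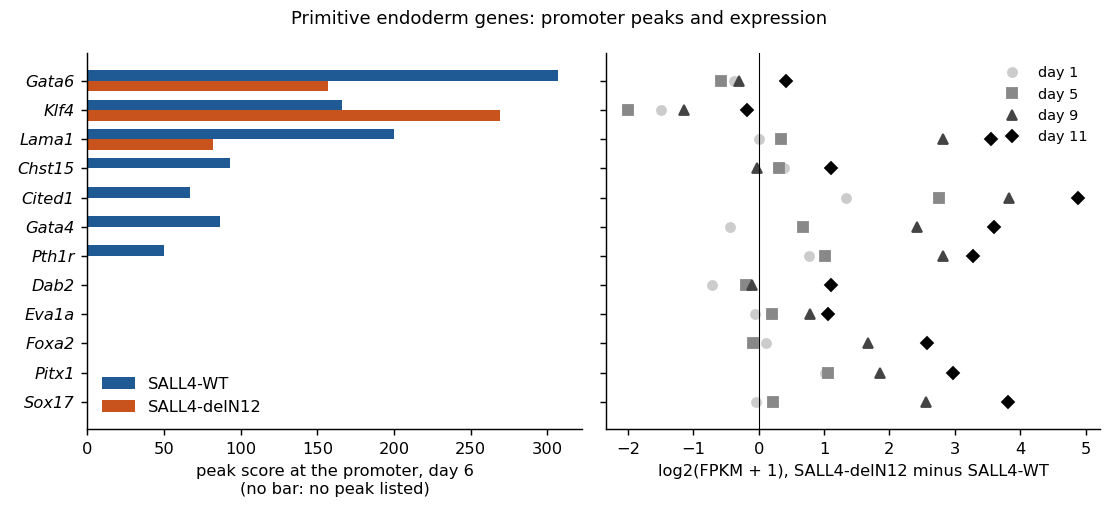
Left, peak score at the promoters of the 12 PrE genes at day 6, blue for SALL4-WT and orange for SALL4-delN12, with no bar where no peak is listed. Right, difference in log2(FPKM + 1), SALL4-delN12 minus SALL4-WT, at days 1, 5, 9 and 11; the day 11 values of the genes of SALL4-WT alone run from 1.10 to 4.88 and those of the unbound genes from 1.06 to 3.81.

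The genes of NuRD and of the SALL family were set beside them. Of the 15 NuRD genes, 11 had a SALL4-WT peak (73.3%) and 10 a SALL4-delN12 peak (66.7%), against 51.5% and 38.5% of all promoters. Of genes at 10 to 30 FPKM, 84.7% and 64.1% had one. Of the 15 genes 14 were expressed in both libraries. Peaks of both forms lay at 9, namely the remodeller *Chd4* (85.8 and 56.6), the deacetylases *Hdac1* (184 and 77.9) and *Hdac2* (271 and 175), *Mbd2* (127 and 59.8), *Mbd3* (421 and 185), *Gatad2a* (413 and 129), *Gatad2b* (292 and 124), and the histone chaperones *Rbbp4* (372 and 300.5) and *Rbbp7* (172 and 184). *Mta2* and *Mta3* had a peak of SALL4-WT alone, and *Chd3* one of SALL4-delN12 alone with a score of 239. *Mta1*, *Chd5* and *Cdk2ap1* had none. The window of *Cdk2ap1* (105 and 107 FPKM) also had no H3K27ac or accessibility peak, and a SALL4 peak at another start is not counted. None of the 14 differed 2-fold at day 5, and the values furthest from 0 were 0.77 for *Chd3* (13.4 and 23.6 FPKM) and 0.52 for *Gatad2a* (18.9 and 27.5 FPKM). The promoters of *Sall1*, *Sall2*, *Sall3* and *Sall4* had no SALL4 peak in either form.

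The other lists were read against the same 51.5% and 38.5% of all promoters, shares that rise with expression. Peaks lay at 7.81% and 5.48% of genes at 0 FPKM, 37.2% and 23.3% over 0 to 1 FPKM, and 84.7% and 64.1% at 10 to 30 FPKM. In the SALL4-WT library 3 of the 20 pluripotency genes and 2 of the 12 visceral endoderm genes were expressed. All 6 BMP targets and all 10 basement membrane genes were. Of the 20 pluripotency genes, 7 had a SALL4-WT peak (35%) and 5 a SALL4-delN12 peak (25%), among them *Dppa2* (331 and 283) and *Klf5* (174 and 105) in both. *Nanog*, *Zfp42* and *Lin28a* had none, and *Sox2* had one of SALL4-WT alone (105). Of the 6 BMP targets, 4 had a SALL4-WT peak and 4 a SALL4-delN12 peak (66.7% in each form). *Id1* and *Smad6* had peaks of both forms and stood lower in SALL4-delN12 (548 and 214 FPKM, 21.99 and 7.36 FPKM), *Id2* had one of SALL4-delN12 alone (191 and 73.5 FPKM), and *Id3* had none and was lower as well (591 and 267 FPKM). The other two stood higher in SALL4-delN12, *Bambi* with peaks of both forms (9.05 and 15.9 FPKM, 0.75) and *Smad7* with one of SALL4-WT alone (11.7 and 17.4 FPKM, 0.54). Of the 10 basement membrane genes, 7 had a SALL4-WT peak and 5 a SALL4-delN12 peak, the strongest at *Lamc1* (624 and 377), and 4 were at least 2-fold lower at day 5 and 0 higher, against 4.82% and 4.42% of all genes. *Col4a1*, which had no peak, stood at 140 and 39.6 FPKM. Of the 12 visceral endoderm genes, 3 had a SALL4-WT peak and 1 of these, *Lrp2*, a SALL4-delN12 peak as well (8.33%).

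Among gene families the shares were read against the same background. Olfactory receptor genes, silent outside the nose, had a SALL4-WT peak at 11 of 1093 promoters (1.01%) and a SALL4-delN12 peak at 18 (1.65%). Cytosolic ribosomal protein genes had one at 75 of 84 (89.3%) and at 56 (66.7%), near the 84.6% and 68.6% of all genes at 100 FPKM and above. Replication-dependent histone genes went the other way, with a SALL4-WT peak at 46 of 67 promoters (68.7%) and a SALL4-delN12 peak at 53 (79.1%), and 11 belonged to SALL4-delN12 alone. Since these genes stand in clusters, a peak may cover several of them. Zfp genes had a SALL4-WT peak at 249 of 394 promoters (63.2%) and a SALL4-delN12 peak at 181 (45.9%), and Hox genes at 12 and 10 of 39. On the X chromosome 30.2% of 948 promoters had a SALL4-WT peak and 23.3% a SALL4-delN12 peak, and on the Y chromosome 3 of 183 had one in each form.

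The cells were checked against markers. All 15 fibroblast markers were expressed in both libraries of day 5, as the label MEF calls for. Of them 12 had a SALL4-WT peak (80%) and 11 a SALL4-delN12 peak (73.3%), against 51.5% and 38.5% of all promoters. Of all genes at 10 to 30 FPKM, 84.7% and 64.1% had one, and at 30 to 100 FPKM 84.8% and 65.0%. Of the 15, 6 were at least 2-fold lower in SALL4-delN12 (*Col3a1*, *Fbn1*, *Prrx1*, *Twist1*, *Snai2* and *Postn*) and 2 higher (*Col1a1* and *Pdgfrb*), against 4.82% and 4.42% of all genes. *Prrx1*, a mesenchymal homeobox gene, had a peak of SALL4-delN12 alone (136) and stood at 41.1 and 12.9 FPKM. *Snai2*, a repressor of epithelial genes, had both peaks (280 and 240) and stood at 84.7 and 18.6 FPKM. Of the 8 macrophage markers 6 were at least 2-fold higher in SALL4-delN12, and their summed level went from 39.6 to 238 FPKM. *C1qa* stood at 3.03 and 56.9 FPKM, *Csf1r* at 1.17 and 9.09 FPKM and *Ptprc* at 0.262 and 0.529 FPKM. Only *Cd68* of this list had a promoter peak, in both forms (118 and 68.0). The 6 endothelial markers summed to 4.05 and 9.36 FPKM. *Pecam1*, with peaks of both forms, stood at 0.412 and 4.24 FPKM (1.89), *Cdh5* at 2.73 and 3.68 FPKM, *Tek*, with a peak of SALL4-delN12 alone (329), at 0.184 and 0.902 FPKM, and *Kdr*, with one of SALL4-WT alone, at 0.708 and 0.458 FPKM. *Tie1* and *Emcn* were under 0.1 FPKM in both. The part of such cells in the peaks at *Cd53* and *Mmp12*, or in the shares of higher and lower genes, was not tested.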

How the data were processed

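SALL4, H3K27ac (CUT&Tag, day 6) and ATAC-seq (MEF and day 5) peak lists and an FPKM table were used. Per the labels and the methods of the study, the authors trimmed CUT&Tag reads with Trim Galore 0.6.4, aligned them to mm10 with Bowtie2 2.4.5, filtered with SAMtools 1.16.1, merged replicates and then called peaks with MACS 1.4.2, so the deposited score is that of pooled reads, with no control list used here. The authors made the deposited FPKM values with HISAT2 2.2.1 and StringTie 2.2.1, 1 library per form and day. Neither kind of file gives read depth, so the precision of single values is unknown. Of the FPKM table, 9 columns that were not matched here to a sample label were not used.

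Promoters were the 2 kb on each side of the gene start of protein-coding genes in GENCODE vM21, mitochondrial genes left out. The study used the same 2 kb, and the choice of annotation and of protein-coding genes was made here. A peak overlapping by 1 base counted, and the highest score at a promoter was kept. The midpoint of a counted peak could thus lie outside the window. FPKM was joined by symbol for 20441 genes and through RefSeq synonyms for 454, and 54 genes with a repeated symbol got none. Differences were taken on log2(FPKM + 1). Where shares of higher or lower genes are given, genes had at least 1 FPKM in either library. Base composition was read from GRCm38.p6. Work was done in Python 3.11.15 with pandas 2.3.3, numpy 2.4.6, scipy 1.17.1 and pyfaidx 0.9.0.4, and was tested on simulated data with planted peaks and changes.

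Named genes were the PrE, NuRD and SALL lists, the 5 highest-scoring promoters of each bound class (by the lower of 2 scores where both forms had a peak), and the 4 largest differences in each direction per class among genes with at least 5 FPKM in either library. Genes that this rule names but that are withheld are not reported here. Members of the lists named singly were chosen after their values were seen. The promoters, lists and comparisons were chosen with earlier results of these data known. Alternatives were other windows, starts, score minimums, numbers of peaks, filters, pseudocounts and scaling.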

Additional observations from a re-analysis of the deposited data

Results flagged for a closer look

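SALL4 peaks lay inside the *Sall4* gene, outside its promoter and outside the comparisons above. Over exon 2 (chr2:168754363-168756945 in SALL4-WT) the score was 1283.48 in SALL4-WT, rank 2 of all its peaks, and 271.77, rank 10410, in SALL4-delN12. Over exon 4 it was 379.12 (rank 2339) and 192.51 (rank 19795). Both cells carry *Sall4* cDNA from a retrovirus, and the part of that DNA in these peaks was not tested.

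Among the named genes, 4 had differences of opposite sign at different days, with a size of at least 0.25 in each direction and of at least 1 in one of them. The difference between days was not tested, since there was 1 library per form and day. *Rps28* was −5.69 at day 5 (596 and 10.6 FPKM) and −2.54 at day 1, but 0.30 at day 9 and 0.41 at day 11 (418 and 556 FPKM). *Msln* was −1.36 at day 1 and 0.71 at day 5. *Gata4* was −0.44 at day 1 and 3.60 at day 11, and *Dab2* −0.72 at day 1 and 1.11 at day 11.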

How the results depend on the processing

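No paired analysis was possible because each form had 1 peak list and 1 library per day. The number of peaks, windows and starts left the 4 class sizes within 1.5 times of those reported. Of 201 values recomputed 128 counted as unchanged. For this, class sizes had to stay within 1.5 times, and shares and medians within the 95% binomial interval of the reported value. The alternatives for the shares of higher and lower genes and for the H3K27ac shares were chosen after seeing the data. In the values below the classes follow in the order both, SALL4-WT alone, SALL4-delN12 alone and neither unless named.

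With scores of at least 100 both forms shared 4916 promoters, and with scores of at least 200 they shared 1689 and 17304 were bound by neither. At these minimums a promoter whose peak of 1 form scored lower changed class, so the classes do not hold the same genes. Expressed genes made up 88.6%, 81.9%, 63.8% and 32.1% at a score of 100 and 89.5%, 88.2%, 68.2% and 45.7% at 200. They made up 86.1%, 69.2%, 46.1% and 17.5% with all transcript starts, 88.8%, 74.3%, 61.0% and 23.6% within 1 kb, 89.5%, 76.5%, 64.8% and 25.005% within 500 bases, and 63.0%, 48.7%, 34.4% and 11.4% at 5 FPKM. In the class bound by neither they made up 23.2% by peak midpoint and 22.1% in the SALL4-delN12 library. The class order held in each of these.

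Lower genes were 3.68% of SALL4-WT alone at a score of 100, and 2.13%, 2.15%, 9.95% and 5.78% at 200. They were 2.63% of both within 500 bases, 4.43%, 8.37%, 18.2% and 12.7% with a pseudocount of 0.1, and 4.45%, 7.56% and 1.82% of the last 3 classes with no filter. SALL4-delN12 alone had the largest share of lower genes in each of these. Higher genes were 1.41% of both, 2.73% of SALL4-WT alone and 8.51% of neither at a score of 100, and 0.866%, 1.34%, 3.66% and 5.94% at 200. They were 1.63% of both and 3.31% of SALL4-WT alone within 500 bases. With a pseudocount of 0.1 they were 3.11% of both, 7.22% of SALL4-WT alone and 17.6% of neither. With no filter they were 3.26%, 4.74% and 2.74% of the last 3 classes. There SALL4-WT alone and SALL4-delN12 alone each stood above neither.

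The median differences at day 5 were −0.0086, −0.046, −0.090 and −0.030 at 5 FPKM or more, and −0.035, −0.083 and 0.014 in the last 3 classes at 1 FPKM or more. For both forms the median was −0.014 at a score of 200 and 0.0047 after scaling, and for SALL4-delN12 alone it was −0.013 within 1 kb and −0.020 within 500 bases. With the same number of H3K27ac peaks in both forms, the SALL4-delN12 shares were 87.5%, 58.9%, 30.2% and 7.80%, and 44.9% of all promoters.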
